A study of Caenorhabditis elegans with 20 samples.

Results

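The 10 libraries of worms at Day 13 of adulthood fall into sets by the letter in their titles, and these sets are compared here: 6 libraries lettered A, B and C against 4 libraries lettered D and E, of 20 libraries in the series. Each letter has 1 library of each strain. Overexpressing worms were of strain SD1963, rde-1(ne300); unc-119(ed3); Ex[elt-2:GFP; unc-119(+)], and control worms of strain SD1965, rde-1(ne300); unc-119(ed3); Ex[unc-119(+)]. Letters A to C thus hold 3 overexpressing and 3 control libraries, and letters D and E hold 2 of each. Both strains carry the rde-1 and unc-119 alleles, and each is a single line with an array outside the chromosomes. On the array of the overexpressing strain elt-2 is driven by its own promoter, and the control array carries no elt-2. Each library was made from a pool of many worms that had been kept on FUDR, which stops the production of progeny, and had been washed over mesh, with dead animals removed by hand. Messenger RNA was measured by 3SEQ, a method that reads only the 3′ end of each poly-A transcript and so counts long and short messages alike.

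No batch, date or culture is given for the letters, so the sets are called by letter only and nothing here says what they share. The split was noticed in these same counts, and the tests below therefore rank and describe genes and are no evidence that the sets differ. A whole adult worm holds intestine, epidermis, muscle, neurons and a gonad. The epidermis makes the collagens of the cuticle and secretes antimicrobial peptides, the intestine makes yolk proteins, digestive proteases and detoxification enzymes, and the gonad holds germ cells, oocytes and, in young hermaphrodites, sperm. In bulk RNA, fewer cells of a type and less RNA per cell cannot be told apart.

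Letters A to C were sequenced more deeply than letters D and E. Their libraries held 22.3 to 35.2 M counts (1 M is 1e6 counts), against 10.7 to 19.98 M in letters D and E, so depth and set cannot be told apart. Genes with at least 10 counts numbered 8111 to 8883 in letters A to C, against 8186 to 9145 in letters D and E. The 3% most highly counted genes held 94.9 to 96.6% of the counts in letters A to C, against 90.8 to 94.5% in letters D and E. Levels are given as CPM, that is, counts out of 1e6 in a library scaled by TMM factors. Those factors were 0.61 to 1.25 in letters A to C and 1.08 to 1.83 in letters D and E. Whether levels of the sets overlap is therefore also relative to these factors. The smallest level distinguishable from 0 is set at 3 counts, or 0.108 to 0.162 CPM. That floor covers counting error only. Every log2 change is letters A to C over letters D and E and is relative to this scaling: the median over all genes tested was -0.09 with TMM factors, -0.25 with totals lacking the top 3% of genes and -1.01 with library totals alone.

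In the principal components of the 10 libraries, the first component held 53.4% of the variance and parted the sets. Overexpressing libraries of letters A to C lay at -12.02 to 14.2 and control libraries of letters A to C at -80.6 to -70.2, while the 4 libraries of letters D and E lay at 47.01 to 65.4. The second component held 25.5% and set overexpressing A and B, at -70.3 and -70.2, apart from the other 8 libraries, which lay between -9.28 and 45.2. Overexpressing C, at -9.28 on the second component, lay nearer to letters D and E there than overexpressing A and B did.

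**Figure D1:**
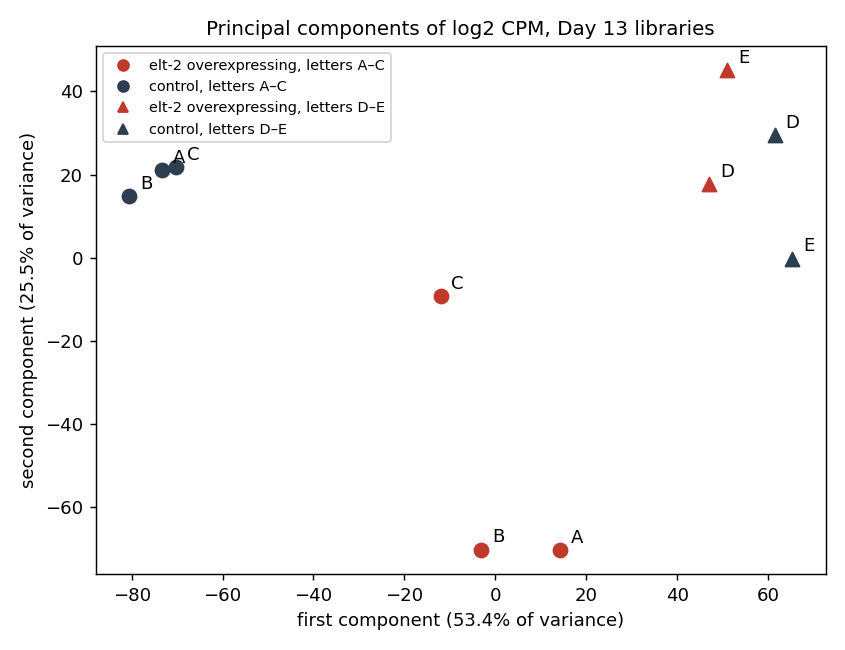
First and second principal components of log2 CPM in the 10 Day 13 libraries, with overexpressing libraries in red, control libraries in dark blue, circles for letters A to C and triangles for letters D and E. The 4 triangles lie at 47.01 or more on the first component and all 6 circles at 14.2 or less.

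Of 10361 genes tested with strain as covariate, 3605 differed between the sets at a false discovery rate of 10% (edgeR). Of them 1724 were higher and 1881 lower in letters A to C, which is 16.6% and 18.2% of the genes tested. The counts of list members given below stand beside these shares. The lower genes included more large differences: 407 genes fell by more than 3 on the log2 scale and 150 rose by more than 3. In 9.23% of the genes all 6 libraries of letters A to C lay above all 4 of letters D and E, and in 9.35% all 6 lay below. Without letter D the count fell to 2127 genes, 888 higher and 1239 lower. With library totals alone, which shift the whole table down in letters A to C, 568 genes were called higher and 4612 lower. Fits that left out 1 library or 1 letter each, 15 in all, are given below for the lists and genes described, where they ended a call or moved a count by over 1.5 times. The array gene elt-2, a GATA factor of the intestine, had 1.17 to 9.21 CPM in letters A to C (median 4.1), against 6.42, 9.28, 1.49 and 1.29 CPM in letters D and E. Values of letters D and E are given in the order overexpressing D, overexpressing E, control D and control E. Its log2 change of 0.06 ± 0.27 (SE, edgeR, adjusted p = 0.886) was not called, and neither were those of the marker unc-119, at 0.14 (edgeR, adjusted p = 0.882), and of rde-1, at -0.27 (edgeR, adjusted p = 0.785).

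The genes with the largest increases in letters A to C were of mixed function. They were taken as the 12 highest of 443 called genes with at least 10 CPM in the higher set and no overlap between the sets. rpl-37, a protein of the large ribosomal subunit, had 423 to 3452 CPM in letters A to C (median 1467), against 100.5, 67.8, 28.4 and 59.2 CPM in letters D and E. Its log2 change was 4.28 ± 0.69 (SE, edgeR, adjusted p = 0.000595). dur-1 had 2.77 to 26.3 CPM in letters A to C (median 9.17), against 0.231, 0.0513, 0.0782 and 0.107 CPM in letters D and E, a change of 6.19 ± 0.65 (SE, edgeR, adjusted p = 3.39e-05). In both genes the control libraries were the highest of letters A to C. K01D12.7 had 3.51 to 27.9 CPM in letters A to C (median 8.73), against 0.139, 0.256, 0.274 and 0.536 CPM in letters D and E, a change of 5.15 (edgeR, adjusted p = 1.4e-05). gur-3, a gustatory receptor family gene needed for sensing light and hydrogen peroxide, had 6.74 to 17.7 CPM in letters A to C (median 10.8), against 0.231, 1.49, 0.508 and 0.644 CPM in letters D and E. It rose by 4.00 (edgeR, adjusted p = 0.000138). spch-2, a small basic protein of sperm chromatin, had 6.95 to 32.3 CPM in letters A to C (median 14.1), against 2.63, 1.03, 1.37 and 0.751 CPM in letters D and E and rose by 3.37 (edgeR, adjusted p = 0.00055). The others were ZK858.2, dos-1, ZK507.1, ptrg-1, B0496.2, T28F4.6 and the chemoreceptor gene sre-4, with changes of 3.34 to 4.38. Of the 12 genes 9 overlap a gene on the opposite strand in the WBcel235 annotation, rpl-37, dur-1 and gur-3 among them. Whether the counting used strand is not given in the sources used here, so reads of such genes and of their partners cannot be told apart. 

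The genes with the largest decreases were chosen by the same rule. tomm-7, a subunit of the translocase that imports proteins into mitochondria (WBcel235 chromosome III, 7859613 to 7860159), had 1.11 to 3.09 CPM in letters A to C (median 1.45), against 84.1, 227, 151 and 76.5 CPM in letters D and E. It fell by 6.26 ± 0.50 on the log2 scale (SE, edgeR, adjusted p = 6.99e-06). rfc-2, a subunit of the clamp loader of DNA replication (chromosome IV, 1347314 to 1352977), had 0.99 to 1.51 CPM in letters A to C (median 1.18), against 27.5, 69.1, 53.3 and 27.1 CPM in letters D and E, a change of -5.21 ± 0.39 (SE, edgeR, adjusted p = 6.99e-06). In both genes the strains overlapped within each set. Y66D12A.21 had 0.251 to 1.95 CPM in letters A to C (median 0.487), against 90.4, 84.1, 66.5 and 56.3 CPM in letters D and E and a change of -6.82 (edgeR, adjusted p = 6.99e-06). exl-1, related to intracellular chloride channels, had 0.37 to 8.99 CPM in letters A to C (median 0.626), against 101, 139, 106 and 92 CPM in letters D and E and a change of -6.15 (edgeR, adjusted p = 0.000204). clec-65, a C-type lectin, had 0.287 to 0.905 CPM in letters A to C (median 0.494), against 14.8, 21.5, 12.9 and 17.6 CPM in letters D and E and a change of -4.995 (edgeR, adjusted p = 6.99e-06). In exl-1, Y66D12A.21, Y53H1B.2 and the pseudogene T07G12.8 overexpressing C was the highest library of letters A to C, at 8.99, 1.95, 13.2 and 2.44 CPM. The others were C53D6.4, E04F6.9, Y71H2B.4, C01F1.6 and C44C1.1, with changes of -5.60 to -5.38. Of these 12 genes 3 overlap a gene on the opposite strand, tomm-7 and exl-1 among them. With DESeq2 exl-1 and T07G12.8 were not called, at -6.13 and -6.09.

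**Figure D2:**
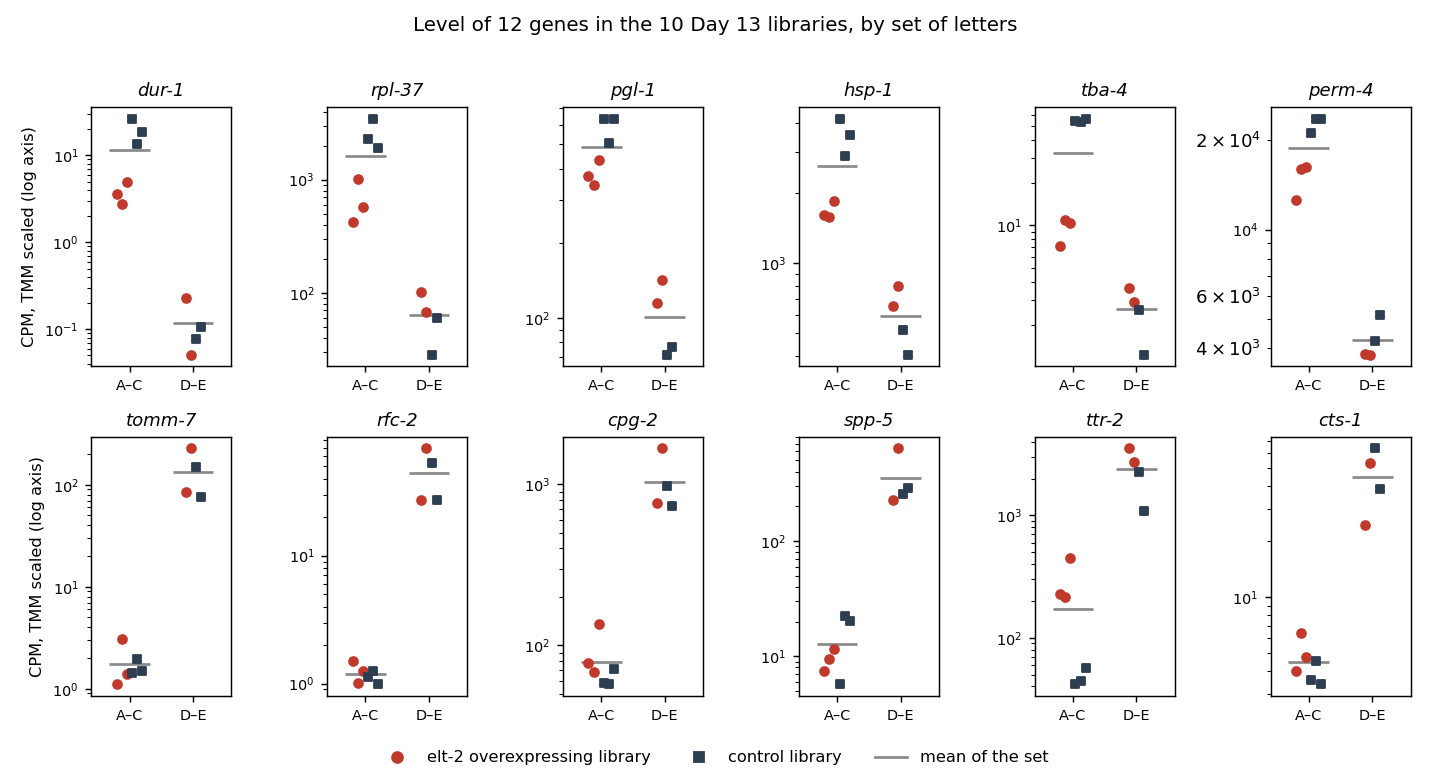
TMM-scaled CPM on a log axis of 12 genes in the 10 Day 13 libraries, letters A to C on the left and D and E on the right of each panel, with overexpressing libraries as red circles, control libraries as dark blue squares and the mean of each set as a grey line. The upper 6 genes are higher and the lower 6 lower in letters A to C, and dur-1, rpl-37, hsp-1 and tba-4 are split by strain within letters A to C.

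The same sets of letters exist among the 10 libraries of L4 larvae, which share no worms with the Day 13 libraries by their labels and were fitted in one model of all 20 libraries. The L4 libraries carry the same strain labels, although the growth protocol calls the L4 animals N2, the wild-type strain. At L4 23.5% of 12093 genes were higher and 26.6% lower in letters A to C. Of the 3605 genes called at Day 13, 3060 (84.9%) differed in the same direction at L4, and 2337 were called there in that direction against 188 in the opposite one. The share with the same direction over all genes tested is not given here, so 84.9% is not particular to called genes on these values. The differences between the sets at Day 13 and at L4 correlated at 0.565 over 10361 genes, and genes do not count as replicates. All 12 of the lowest genes named above were called lower at L4 too, with changes of -7.71 to -3.92. tomm-7 had 1.07 to 1.98 CPM in letters A to C, against 296 to 386 CPM in letters D and E at L4. rfc-2 had 0.329 to 0.74 CPM and 17.3 to 25.4 CPM there. Of the 12 highest genes 11 were called higher at L4, and dur-1 was called lower, by 1.21 (edgeR, adjusted p = 0.0309).

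Genes of the cuticle and epidermis leaned higher in letters A to C, mainly in control worms. Of 156 col family collagens 77 were higher, 0 lower and 27 not called, while 52 were too scarce to test, with a median log2 change of 1.52 beside -0.09 over all genes. By strain, 16 collagens were higher and 0 lower in overexpressing worms, and 83 higher and 0 lower in control worms. Their summed level was 5543 to 32425 CPM in letters A to C, against 4867 to 6969 CPM in letters D and E, so the ranges of the sums overlapped. The 4 named by size of change were nearly absent from letters D and E: col-161 had 111 counts over the 6 libraries of letters A to C, against 1 over the 4 of letters D and E, col-159 71 and 1, col-93 73 and 2, and col-115 77 and 2. Collagen genes resemble each other closely, and reads may have been divided between them. Counts depended on single libraries or letters for col collagens (48 higher without letter B and 37 higher without letter D). With library totals alone 23 were higher and 4 lower. Without overexpressing C 1 col collagen was lower.

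Of the collagens and enzymes of larval moulting and body shape, 13 of 26 tested were higher and 2 lower (median 1.17), with a summed level of 80.5 to 304 CPM in letters A to C, against 52.1 to 120.0 CPM in letters D and E. By strain, 1 was higher and 1 lower in overexpressing worms, and 17 were higher and 0 lower in control worms. dpy-8, a collagen of the cuticle furrows, had 0.499 to 2.59 CPM in letters A to C (median 1.05), against 0.323, 0.154, 0.235 and 0.107 CPM in letters D and E and rose by 2.45 (edgeR, adjusted p = 0.00563). mlt-10, a moulting gene, had 0.647 to 2.98 CPM in letters A to C (median 1.39), against 2.26, 4.67, 4.93 and 1.88 CPM in letters D and E and fell by 1.23 (edgeR, adjusted p = 0.0615). Among the epidermal antimicrobial peptides 12 of 21 were higher and 2 lower (median 1.36). By strain, 0 were higher and 1 lower in overexpressing worms, and 16 higher and 1 lower in control worms. nlp-29, induced by fungal infection and wounding, had 271 to 1122 CPM in letters A to C (median 610.2), against 244, 195, 104.4 and 75.2 CPM in letters D and E. Its change was 1.98 ± 0.57 (SE, edgeR, adjusted p = 0.0212), and its neighbour nlp-30 rose by 1.97 (edgeR, adjusted p = 0.00891). The caenacin gene cnc-11 ran the other way, with 0.0412 to 0.287 CPM in letters A to C (median 0.0763), against 0.693, 5.69, 4.65 and 0.268 CPM in letters D and E and a change of -4.66 (edgeR, adjusted p = 0.000836). Leaving out a library or letter moved the counts of moulting and body shape genes (6 to 8 higher in 6 of 15 such fits, fewest without control E) and the peptides (2 to 6 higher in 4 of 15 such fits, fewest without letter E). The call did not hold for mlt-10 in 8 of 15 fits that left out a library or letter (at -1.27 to -0.87) and nlp-29 without control D, letter D and letter E (at 1.61 to 1.96). The 2 lower moulting genes were 0 to 1 in 13 of 15 such fits, and the 2 lower peptides were 1 without control D, overexpressing D, letter B and letter D.

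Cytosolic ribosomal protein genes took 56 to 72% in letters A to C, against 59.2 to 68.3% in letters D and E, of all counts, shares that overlap. After TMM scaling 44 of 81 were higher and 2 lower (median 0.86), whereas with library totals alone 9 were higher and 14 lower and the median was -0.07. The members did not move as 1 block. rla-0, of the ribosomal stalk, had 11536 to 32490.5 CPM in letters A to C (median 16648), against 4420.2, 3730.1, 4225 and 7084 CPM in letters D and E, a change of 2.097 ± 0.39 (SE, edgeR, adjusted p = 0.00165). rpl-29, of the large subunit, had 237 to 818 CPM in letters A to C (median 425), against 3322, 3909, 2191 and 1875 CPM in letters D and E, a change of -2.69 ± 0.34 (SE, edgeR, adjusted p = 9.97e-05). rpl-24.2, a relative of rpl-24 that acts in ribosome assembly, fell by 2.67 (edgeR, adjusted p = 0.000133). rla-0 and rpl-29 kept their direction and their call under library totals alone, at 1.12 and -3.65. Of the 10 genes with the highest mean level, all ribosomal, rps-25, rpl-10, rps-9, rps-12, rps-3, rpl-43 and rpl-38 were called higher, by 0.76 to 1.34, and rps-16, rps-14 and rpl-23 were not called. With library totals alone rps-16 and rps-14 were called lower, at -0.48 and -0.53, and rps-25, rpl-10, rps-9, rps-12, rps-3 and rpl-43 were not called, at 0.32, 0.23, -0.15, 0.12, -0.06 and 0.44. The counts moved without some libraries or letters for the ribosomal proteins (16 to 29 higher in 5 of 15 such fits, fewest without letter D). The fits with a library or letter left out ended the call of rps-25 without letter E (at 1.01), rpl-10 without letter E (at 1.00), rps-9 in 11 of 15 fits that left out a library or letter (at 0.62 to 0.95), rps-3 in 7 of 15 fits that left out a library or letter (at 0.75 to 0.98) and rpl-43 in 6 of 15 fits that left out a library or letter (at 0.94 to 1.197).

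Of 27 translation factors 4 were higher and 1 lower (median 0.31, and -0.61 with library totals alone), both below the shares over all genes of 16.6% and 18.2%. The elongation factor gene eef-2 had 5093 to 10449.7 CPM in letters A to C (median 8119), against 2578, 3919, 2358 and 1935 CPM in letters D and E and rose by 1.52 (edgeR, adjusted p = 0.00681). eif-3.D, a subunit of initiation factor eIF3, had 1.62 to 5.32 CPM in letters A to C (median 2.93), against 9.61, 97, 88.8 and 12.5 CPM in letters D and E and fell by 4.24 (edgeR, adjusted p = 0.000454). The mitochondrial ribosome had members in both directions, 7 of 64 higher and 15 lower (median -0.26). Its share of higher genes was below and its share of lower genes above that over all genes. mrpl-19 had 19.8 to 52.3 CPM in letters A to C (median 26.1), against 3.6, 6.31, 3.13 and 5.36 CPM in letters D and E, a change of 2.71 (edgeR, adjusted p = 0.000541), and mrpl-18 had 0.949 to 3.57 CPM in letters A to C (median 1.94), against 4.67, 44.3, 32.7 and 10.6 CPM in letters D and E, a change of -3.53 (edgeR, adjusted p = 0.00045). The proteasome was divided as well, with 3 of 32 subunits higher and 10 lower (median -0.37). The ring subunit pas-2 had 3.01 to 11.5 CPM in letters A to C (median 5.91), against 59.3, 43.2, 31 and 32.9 CPM in letters D and E and fell by 2.72 (edgeR, adjusted p = 0.000389), while rpt-6, an ATPase of the cap, had 82.5 to 239.7 CPM in letters A to C (median 146), against 48.7, 49, 41.9 and 44.7 CPM in letters D and E and rose by 1.54 (edgeR, adjusted p = 0.0137). Subunits of 1 complex thus lay on opposite sides of the comparison, and calls in both directions were also common over all genes. With a library or letter left out, counts moved for translation factors (0 to 2 higher in 6 of 15 such fits, fewest without letter D), mitochondrial ribosomal proteins (2 to 4 higher in 7 of 15 such fits, fewest without letter D and 9 lower without letter B, 9 lower without letter C and 7 lower without letter D) and the proteasome (0 higher without letter D). Leaving out libraries or letters ended the call of eef-2 without letter D (at 1.36) and rpt-6 without letter D (at 1.47). On library totals alone rpt-6 was not called, at 0.69. Translation factors counted 2 lower without overexpressing C, control E and letter C, and the proteasome 5 higher without overexpressing E.

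Of 42 genes of germline stem cells, P granules and meiosis 9 (21.4%) were higher and 7 (16.7%) lower, near the shares over all genes of 16.6% and 18.2%. Their median was -0.13, and 0.01 with upper-quartile factors. P granules are RNA and protein bodies of germ cells, and both of their core proteins rose: pgl-1 had 345 to 634 CPM in letters A to C (median 469.8), against 116, 143, 71.5 and 76.6 CPM in letters D and E, a change of 2.25 ± 0.42 (SE, edgeR, adjusted p = 0.00171), and pgl-3 rose by 1.89 (edgeR, adjusted p = 0.0128). htp-1, of the meiotic chromosome axis, had 1.29 to 4.39 CPM in letters A to C (median 1.68), against 14.6, 27.7, 16.39 and 11.3 CPM in letters D and E and fell by 3.03 (edgeR, adjusted p = 5.24e-05). syp-2, of the synaptonemal complex, fell by 1.63 (edgeR, adjusted p = 0.00224). Counts depended on single libraries or letters for these germline genes (1 to 5 higher in 9 of 15 such fits, fewest without letter D and 4 lower without control D, 4 lower without letter B and 3 lower without letter D). Calls were lost for pgl-3 without letter D (at 1.64).

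Of 32 oocyte and eggshell genes 2 were higher and 9 lower (median -0.39). Their summed level was 15953 to 38663 CPM in letters A to C (median 28975), against 9986 to 12363 CPM in letters D and E, without overlap on the TMM scale. A single gene, perm-4, held much of that sum in letters A to C, so the sum does not describe the list as a whole. The gene perm-4 helps to build the permeability barrier of the eggshell and had 12539 to 23525 CPM in letters A to C (median 18601), against 3827, 3811, 4227 and 5156 CPM in letters D and E. It rose by 2.12 ± 0.28 (SE, edgeR, adjusted p = 0.000159). cpg-2, a chondroitin proteoglycan of the eggshell, had 57.5 to 137 CPM in letters A to C (median 69.96), against 769, 1675, 974 and 739 CPM in letters D and E and fell by 3.74 ± 0.39 (SE, edgeR, adjusted p = 2.9e-05). The sperm receptor gene egg-1 had 7.95 to 26.9 CPM in letters A to C (median 15.2), against 66.8, 132, 65.6 and 76.9 CPM in letters D and E and fell by 2.52 (edgeR, adjusted p = 0.000288). Transcripts of eggshell parts were thus on both sides, with no library of either set overlapping the other for these 3 genes. The 2 higher members of the list were 1 in 11 of 15 fits that left out a library or letter and 4 without overexpressing A and letter A.

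Of 51 sperm genes 24 were higher and 6 lower (median 1.45). By strain, 0 were higher and 7 lower in overexpressing worms, and 34 higher and 2 lower in control worms. Their summed level was 148 to 1587 CPM in letters A to C, against 57.1 to 261 CPM in letters D and E, and 1 library, control B at 1587 CPM, held the highest sum. The major sperm protein gene msp-53 had 402 counts over letters A to C and 5 over letters D and E, and was called higher (edgeR, adjusted p = 0.00137). msp genes are near-identical copies, so single members are uncertain. msd-2, another sperm gene, had 0 counts in letters A to C, against 47 in letters D and E, and 0 counts allow up to 0.108 to 0.162 CPM per library. Of the 6 yolk protein genes 1 was called in each direction: vit-6 rose by 1.73 (edgeR, adjusted p = 0.0209) and vit-4 fell by 2.08 (edgeR, adjusted p = 0.0555). Their libraries overlapped between the sets, vit-6 with 1076 to 7111 CPM in letters A to C (median 3239), against 604, 1415, 698 and 1151 CPM in letters D and E. Leaving out a library or letter moved the counts of sperm genes (5 to 15 higher in 5 of 15 such fits, fewest without letter D and 2 to 3 lower in 5 of 15 such fits, fewest without letter B). The call did not hold for vit-6 without letter B and letter D (at 1.26 to 1.27) and vit-4 in 7 of 15 fits that left out a library or letter (at -2.36 to -1.54). Yolk genes counted 4 higher without overexpressing E and 3 without letter E.

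Of 30 genes of DNA replication and mitosis 1 was higher and 8 were lower (median -0.57). tyms-1 encodes thymidylate synthase, the enzyme that FUDR inhibits, and had 2.36 to 7.53 CPM in letters A to C (median 3.71), against 19.1, 11.3, 15 and 21 CPM in letters D and E. It fell by 2.12 ± 0.36 (SE, edgeR, adjusted p = 0.000784). rnr-1, the large subunit of ribonucleotide reductase, had 6.71 to 153 CPM in letters A to C (median 24.6), against 162, 291, 201 and 133 CPM in letters D and E. It fell by 2.27 (edgeR, adjusted p = 0.0372), although overexpressing C reached the range of letters D and E. bub-1, a kinase of the spindle checkpoint, had 1.53 to 5.31 CPM in letters A to C (median 2.51), against 5.82, 35.8, 27.8 and 6.28 CPM in letters D and E and fell by 2.75 (edgeR, adjusted p = 0.00167). top-2, a DNA topoisomerase, was the 1 member that rose, by 1.35 (edgeR, adjusted p = 0.0479), with 19.6 to 109.5 CPM in letters A to C (median 55.7), against 19.9, 16.21, 15.2 and 20.01 CPM in letters D and E. Genes switched on in the early embryo stayed scarce: 27 of 61 could be tested, 1 was higher and 4 were lower (median -0.21), and the sum was 70.9 to 163 CPM in letters A to C, against 88.2 to 105 CPM in letters D and E. ceh-51, a homeobox gene of the mesoderm, had 15.6 to 24.8 CPM in letters A to C (median 19.3), against 6.56, 7.23, 9.62 and 6.7 CPM in letters D and E and rose by 1.38 (edgeR, adjusted p = 0.00465). tbx-9, a T-box gene, had 0.825 to 5.92 CPM in letters A to C (median 2.59), against 5.22, 10.3, 10.2 and 3.59 CPM in letters D and E and fell by 1.72 (edgeR, adjusted p = 0.0198). The counts moved without some libraries or letters for embryonic genes (0 to 2 lower in 6 of 15 such fits, fewest without letter D). The fits with a library or letter left out ended the call of rnr-1 without letter B, letter D and letter E (at -2.26 to -1.86), top-2 in 6 of 15 fits that left out a library or letter (at 0.99 to 1.44) and tbx-9 without letter D (at -1.98). top-2 and ceh-51 were not called with library totals alone, at 0.49 and 0.42. The 1 higher replication gene was 0 in 5 of 15 such fits and 2 without overexpressing D and control C. Embryonic genes counted 3 higher without overexpressing A and overexpressing E, and 2 without overexpressing B.

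Linker histones, which bind the DNA between nucleosomes, were higher in 6 of 8 members and lower in 0 (median 1.65). By strain, 1 was called higher in overexpressing worms (median 0.73) and 8 in control worms (median 3.05), and 0 were lower in either. In all 8 the change was called lower in overexpressing than in control worms. hil-4 had 906 to 2042 CPM in letters A to C (median 1510.4), against 398, 534, 368 and 407 CPM in letters D and E and rose by 1.72 ± 0.36 (SE, edgeR, adjusted p = 0.00372). On library totals alone 4 were higher and 0 lower. Of the other histones 12 of 31 were higher and 3 lower (median 0.70), but with library totals alone 5 were higher and 9 lower. By strain, 2 were higher and 4 lower in overexpressing worms, and 20 higher and 3 lower in control worms. Histone genes are near-identical copies and their messages mostly lack a poly-A tail. his-69, an H3 variant gene, had 0 counts in the 6 libraries of letters A to C and 65 over the 4 of letters D and E. Of 9 tubulin genes 5 were higher and 1 lower. The alpha tubulin gene tba-4 had 7.21 to 56.2 CPM in letters A to C (median 32.1), against 3.65, 2.87, 2.54 and 1.23 CPM in letters D and E and rose by 3.00 (edgeR, adjusted p = 0.0049), and tba-1 had 1745 to 3227 CPM in letters A to C (median 2726), against 1021, 1177, 927 and 639 CPM in letters D and E and rose by 1.497 (edgeR, adjusted p = 0.00629). With a library or letter left out, counts moved for linker histones (3 higher without control D and 0 higher without letter D), the other histones (5 to 7 higher in 5 of 15 such fits, fewest without control E and 1 lower without control D and 1 lower without letter D) and tubulins (3 higher without letter C and 2 higher without letter D). Leaving out libraries or letters ended the call of hil-4 without letter D (at 1.54) and tba-1 without letter D (at 1.54). No tubulin was lower without letter D.

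None of the 4 inducible heat shock genes tested was called. The small heat shock gene hsp-16.2 had 0.139 to 1.29 CPM in letters A to C (median 0.67), against 1.15, 0.154, 0.9 and 0.375 CPM in letters D and E, a change of 0.06 (edgeR, adjusted p = 0.958). F44E5.4, an hsp-70 family gene, had a change of 0.69 (edgeR, adjusted p = 0.437). Among 26 chaperones of the cytosol 6 were higher and 2 lower (median 0.22, and -0.69 with library totals alone). hsp-1, the constitutive hsp-70, had 1568 to 4148 CPM in letters A to C (median 2358), against 657, 795, 519 and 406 CPM in letters D and E and rose by 2.01 ± 0.42 (SE, edgeR, adjusted p = 0.00342). The prefoldin gene pfd-5 had 3 to 8.31 CPM in letters A to C (median 4.91), against 7.16, 13.7, 12.5 and 7.78 CPM in letters D and E and fell by 1.03 (edgeR, adjusted p = 0.0329). Of the 6 constitutive or developmental small heat shock genes 1 rose and 1 fell: sip-1 had 11583 to 17473 CPM in letters A to C (median 13446), against 6854, 10539, 6931 and 9814 CPM in letters D and E and rose by 0.72 (edgeR, adjusted p = 0.0761), a direction that turned round with library totals alone, at -0.24. hsp-43 fell by 1.64 (edgeR, adjusted p = 0.00681). Counts depended on single libraries or letters for the cytosolic chaperones (1 to 3 higher in 4 of 15 such fits, fewest without letter D). Calls were lost for pfd-5 without control D, letter C and letter E (at -1.04 to -0.77) and sip-1 in 11 of 15 fits that left out a library or letter (at 0.51 to 1.02). The 2 lower cytosolic chaperones were 0 to 1 in 10 of 15 such fits, and 1 inducible gene was called higher without control D and letter D. Without overexpressing E, control D, control E and letter E 2 constitutive small heat shock genes were lower.

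Of 19 genes of endoplasmic reticulum stress 2 were higher and 1 lower, both below the shares over all genes of 16.6% and 18.2%. pdi-1, a protein disulfide isomerase, had 6.47 to 26.2 CPM in letters A to C (median 12.14), against 66.5, 138, 105 and 53.4 CPM in letters D and E and fell by 2.74 (edgeR, adjusted p = 0.000957), and crt-1, the calcium-binding chaperone calreticulin, had 926 to 4257 CPM in letters A to C (median 2508), against 709, 969, 779 and 393 CPM in letters D and E and rose by 1.53 (edgeR, adjusted p = 0.0352). Of 23 genes of oxidant defence 6 were higher and 4 lower (median 0.14, and -0.78 with library totals alone). prdx-3, a peroxiredoxin of mitochondria, had 5.64 to 10.2 CPM in letters A to C (median 6.91), against 42, 106, 88.9 and 46.8 CPM in letters D and E and fell by 3.25 ± 0.39 (SE, edgeR, adjusted p = 8.15e-05). gpx-1, a glutathione peroxidase, had 4.29 to 8.6 CPM in letters A to C (median 7.78), against 2.08, 3.13, 1.68 and 2.68 CPM in letters D and E and rose by 1.602 (edgeR, adjusted p = 0.00227). Autophagy genes counted 1 higher and 4 lower of 20 (median -0.38, and 0.33 in overexpressing worms alone). The 1 higher gene, atg-18, was not called in 13 of 15 fits that left out a library or letter. The autophagy adaptor genes epg-2 and sqst-1 fell by 2.07 and 1.29 (edgeR, adjusted p = 0.000342 and 0.00448), with no overlap between the sets. Leaving out a library or letter moved the counts of oxidant defence (1 to 3 higher in 6 of 15 such fits, fewest without control E and 2 lower without letter C). The call did not hold for crt-1 in 4 of 15 fits that left out a library or letter (at 1.09 to 1.58). With library totals alone crt-1 and gpx-1 were not called, at 0.65 and 0.68. Without overexpressing E 7 autophagy genes were lower. The 2 higher genes of endoplasmic reticulum stress were 0 to 1 in 9 of 15 such fits and 4 to 5 without overexpressing A, B and E, and the 1 lower was 2 without overexpressing C and letter C.

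Of the immune lists, saposin-like and antibacterial factors leaned lower, with 2 of 20 tested higher and 9 lower (median -0.83). spp-5, a pore-forming antibacterial protein of the intestine, had 5.74 to 22.3 CPM in letters A to C (median 10.5), against 225, 635, 253 and 287 CPM in letters D and E. It fell by 4.82 ± 0.54 (SE, edgeR, adjusted p = 4.82e-05). spp-9 ran the other way, with 0.508 to 5.95 CPM in letters A to C (median 1.78), against 0.508, 0.256, 0 and 0.0536 CPM in letters D and E and a change of 3.86 (edgeR, adjusted p = 0.000811). C-type lectins, a large family of secreted proteins, had 8 higher and 14 lower of 54 tested among 221 (median -0.27). clec-175 had 102 counts in letters A to C, against 0 in letters D and E, and clec-265 had 6 and 291. Of 10 lysozymes 2 were higher and 4 lower. lys-7 had 27.9 to 188 CPM in letters A to C (median 76), against 218, 438, 195 and 293 CPM in letters D and E and fell by 1.91 (edgeR, adjusted p = 0.00578), and ilys-2 had 425 to 1433 CPM in letters A to C (median 618), against 746, 322, 248 and 164 CPM in letters D and E and rose by 1.06 (edgeR, adjusted p = 0.0866), with overlapping libraries. Genes of the response to intracellular pathogens had 4 higher and 0 lower of 33 (median 0.55, and -0.30 with library totals alone), below the share of higher genes over all genes. skr-5, of the ubiquitin ligase subunits in that response, had 3.75 to 13.3 CPM in letters A to C (median 10.8), against 1.66, 1.74, 1.96 and 3 CPM in letters D and E and rose by 2.25 (edgeR, adjusted p = 0.00108). Of 12 genes of the p38 pathway and infection response 2 were called in each direction, near the shares over all genes. The counts moved without some libraries or letters for C-type lectins (5 higher without letter C and 5 higher without letter D) and lysozymes (2 lower without control E, 2 lower without letter B and 1 lower without letter E). The fits with a library or letter left out ended the call of ilys-2 in 11 of 15 fits that left out a library or letter (at 0.65 to 1.62). On library totals alone ilys-2 was not called, at 0.15. Without overexpressing A 13 C-type lectins were higher, and without control E 10 genes of the intracellular pathogen response. Saposin-like factors counted 5 higher without overexpressing A, 4 without overexpressing E, 4 without letter A and 1 without letter D. The 2 higher lysozymes were 0 to 1 in 10 of 15 such fits. On the p38 list the 2 higher genes were 0 to 1 in 7 and the 2 lower genes 0 to 1 in 13 of 15 such fits. In 5 of 15 such fits 1 gene of the intracellular pathogen response was lower.

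Lists of metabolism differed in how many of their members were lower, beside 18.2% over all genes tested. Glutathione transferases, which conjugate foreign and oxidised compounds, had 0 higher and 6 lower of 13 tested among 43 (median -1.53). gst-39 had 0.0532 to 2.98 CPM in letters A to C (median 0.194), against 13.9, 14.4, 12.5 and 7.67 CPM in letters D and E and fell by 4.44 (edgeR, adjusted p = 0.00117). gst-1 had 1.86 to 4.31 CPM in letters A to C (median 2.83), against 24, 15.2, 13.4 and 21.6 CPM in letters D and E and fell by 2.73 (edgeR, adjusted p = 4.66e-05). gst-5 and gst-26 fell as well, with 9 and 4 counts over letters A to C and 211 and 86 over letters D and E. Short-chain dehydrogenases had 1 higher and 8 lower of 21 (median -0.44): dhs-12 had 0.739 to 2.6 CPM in letters A to C (median 0.978), against 14.8, 10.9, 11 and 8.8 CPM in letters D and E and fell by 3.26 (edgeR, adjusted p = 2.17e-05). With a library or letter left out, counts moved for short-chain dehydrogenases (5 lower in 4 of 15 such fits, fewest without control E). Without overexpressing A, control E and letter A 2 short-chain dehydrogenases were higher. Summed levels overlapped for both lists, with 85.8 to 1308 CPM of glutathione transferases in letters A to C, against 526 to 1177 CPM in letters D and E, and 163 to 576 CPM of short-chain dehydrogenases, against 193 to 268 CPM.

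Of 42 subunits of the respiratory chain and ATP synthase 3 were higher and 14 lower (median -0.33). nuo-2, of complex I, had 0.66 to 1.9 CPM in letters A to C (median 1.05), against 3.37, 20.1, 17.4 and 8.15 CPM in letters D and E and fell by 3.50 (edgeR, adjusted p = 0.000169). cox-6A, of cytochrome c oxidase, had 6.98 to 129 CPM in letters A to C (median 14.2), against 354, 215, 148 and 164 CPM in letters D and E and fell by 3.45 (edgeR, adjusted p = 0.00137), and its partner cox-6C had 835 to 1802 CPM in letters A to C (median 1606), against 503, 591, 441 and 449 CPM in letters D and E and rose by 1.48 (edgeR, adjusted p = 0.00854). In the citrate and glyoxylate cycles 3 of 28 were higher and 7 lower (median -0.32). cts-1, citrate synthase, had 3.38 to 6.39 CPM in letters A to C (median 4.25), against 24.5, 52.9, 63.8 and 38.2 CPM in letters D and E and fell by 3.35 ± 0.37 (SE, edgeR, adjusted p = 4.36e-05). icl-1, the enzyme of the glyoxylate shunt, had 69.2 to 292 CPM in letters A to C (median 185), against 38.1, 62, 63.8 and 17.8 CPM in letters D and E and rose by 1.79 (edgeR, adjusted p = 0.0247). Members of both pathways were thus parted without overlap in either direction. Counts depended on single libraries or letters for the respiratory chain (1 higher in 4 of 15 such fits, fewest without control D and 9 lower without letter B) and the citrate and glyoxylate cycles (0 to 1 higher in 5 of 15 such fits, fewest without letter C and 4 lower without letter B). Leaving out libraries or letters ended the call of cox-6C without letter D (at 1.39) and icl-1 without letter C and letter D (at 1.72 to 1.75). Without overexpressing A 8 respiratory chain genes were higher, without overexpressing B and E 5 each and without letter A 6. Without overexpressing A and E 5 genes of the citrate and glyoxylate cycles were higher. The median of the summed levels ran the other way from the counts, at 8759 CPM of respiratory chain genes in letters A to C, against 4840 CPM in letters D and E, and 925 CPM of citrate and glyoxylate cycle genes, against 487 CPM, with overlapping libraries in both. The medians of letters A to C lie between the strains. Respiratory chain sums there were 3348 to 6077 CPM in overexpressing and 11441 to 11934 CPM in control worms. In letters D and E they were 5464 and 5630 CPM in overexpressing and 4216 and 3524 CPM in control worms. Citrate and glyoxylate sums were 369 to 547 CPM in overexpressing A to C and 426 and 666 CPM in overexpressing D and E. In control worms they were 1303 to 1575 CPM in A to C and 544 and 430 CPM in D and E.

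Of 22 genes of glycolysis and gluconeogenesis 2 (9.09%) were higher and 5 (22.7%) lower (median -0.52), against 16.6% and 18.2% over all genes. ldh-1, lactate dehydrogenase, had 5.18 to 8.83 CPM in letters A to C (median 7.09), against 50.4, 76.5, 55.3 and 42.4 CPM in letters D and E and fell by 2.97 (edgeR, adjusted p = 4.63e-05). The aldolase gene aldo-2 had 1400.3 to 2521 CPM in letters A to C (median 2229.9), against 811, 1143, 767 and 800.1 CPM in letters D and E and rose by 1.28 (edgeR, adjusted p = 0.012). Fatty acid oxidation had 0 higher and 5 lower of 26 (median -0.36), and synthesis, elongation and desaturation had 3 higher and 3 lower of 21 (median -0.21). In both lists the share called lower was near that over all genes. fat-1, an omega-3 desaturase, had 4.16 to 13.6 CPM in letters A to C (median 9.16), against 21.8, 24.4, 19.1 and 28.5 CPM in letters D and E and fell by 1.502 (edgeR, adjusted p = 0.00513). elo-5, an elongase of branched-chain fatty acids, had 10.7 to 31.3 CPM in letters A to C (median 22.6), against 5.68, 8.87, 4.07 and 10.1 CPM in letters D and E and rose by 1.59 (edgeR, adjusted p = 0.00942). Cysteine and aspartyl proteases had 3 higher and 7 lower of 19 (median -0.74), a median that turned round to 0.30 with no strain term, 0.25 with the strains of a letter added up and 1.34 in control worms. Of them, asp-4, related to cathepsin D, had 1.29 to 5.91 CPM in letters A to C (median 2.1), against 7.9, 65.7, 58 and 9.33 CPM in letters D and E and fell by 3.83 (edgeR, adjusted p = 0.000664). Transthyretin-related genes had 2 higher and 11 lower of 38 (median -0.45). ttr-2 had 41.8 to 447 CPM in letters A to C (median 136), against 3535, 2759, 2258 and 1091 CPM in letters D and E and fell by 4.33 ± 0.47 (SE, edgeR, adjusted p = 4.18e-05). Leaving out a library or letter moved the counts of fatty acid oxidation (3 lower without letter D), fatty acid synthesis (1 higher without letter C and 0 higher without letter D), the proteases (1 higher in 6 of 15 such fits, fewest without control D and 2 to 4 lower in 5 of 15 such fits, fewest without letter E) and transthyretin-related genes (4 to 7 lower in 7 of 15 such fits, fewest without letter D). Calls were lost for aldo-2 without letter D (at 1.14) and elo-5 without letter D (at 1.22). aldo-2 and elo-5 were not called with library totals alone, at 0.34 and 0.65. Without overexpressing E 17 transthyretin-related genes were lower. The 2 higher glycolysis genes were 0 to 1 in 4 of 15 such fits and the 2 higher transthyretin-related genes 1 in 6. Without overexpressing A and letter A 5 proteases were higher, and 6 without overexpressing E. Fatty acid oxidation counted 1 higher without overexpressing A, 1 without overexpressing B and 2 without overexpressing E, and fatty acid synthesis 5 lower without overexpressing D and 6 without overexpressing E. The median summed level of glycolysis genes was 2858 CPM in letters A to C, against 1221 CPM in letters D and E, and that of the proteases 1877 CPM against 902 CPM, again with overlapping libraries. Both medians of letters A to C lie between the strains. Glycolysis sums there were 1617 to 2540 CPM in overexpressing and 3175 to 3398 CPM in control worms. Protease sums there were 349 to 1003 CPM in overexpressing and 2751 to 3306 CPM in control worms. In letters D and E the protease sums were 745 and 1301 CPM in overexpressing and 933 and 870 CPM in control worms.

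Of 30 body muscle genes 7 (23.3%) were higher and 4 (13.3%) lower, and of 20 neuronal genes 3 (15%) and 5 (25%), against 16.6% and 18.2% over all genes. The median of body muscle genes was 0.31, and -0.63 with library totals alone, and their summed level was 329 to 1107 CPM in letters A to C, against 448 to 593 CPM in letters D and E. dys-1, dystrophin, had 9.05 to 73.2 CPM in letters A to C (median 26.7), against 5.82, 4.72, 3.6 and 3.38 CPM in letters D and E and rose by 2.39 (edgeR, adjusted p = 0.0095). The actin gene act-2 had 35.7 to 124 CPM in letters A to C (median 68.7), against 139.7, 154, 152 and 173 CPM in letters D and E and fell by 1.01 (edgeR, adjusted p = 0.0774). The summed level of the neuronal genes was 116 to 198 CPM in letters A to C, against 102 to 121 CPM in letters D and E. unc-64, syntaxin of synapses, had 31.3 to 40.0 CPM in letters A to C (median 36.7), against 9.47, 9.03, 6.57 and 6.11 CPM in letters D and E and rose by 2.23 (edgeR, adjusted p = 0.000384), and ida-1, of dense core vesicles, had 0.125 to 1.41 CPM in letters A to C (median 0.533), against 4.62, 11.1, 8.92 and 4.61 CPM in letters D and E and fell by 3.77 (edgeR, adjusted p = 0.000123). The counts moved without some libraries or letters for body muscle genes (3 to 4 higher in 5 of 15 such fits, fewest without control E and 0 to 2 lower in 13 of 15 such fits, fewest without letter A). The call did not hold for act-2 in 12 of 15 fits that left out a library or letter (at -1.05 to -0.73). The part of tissue makeup in the other results was not tested. Without overexpressing A and without overexpressing E 5 neuronal genes were higher.

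**Figure D3:**
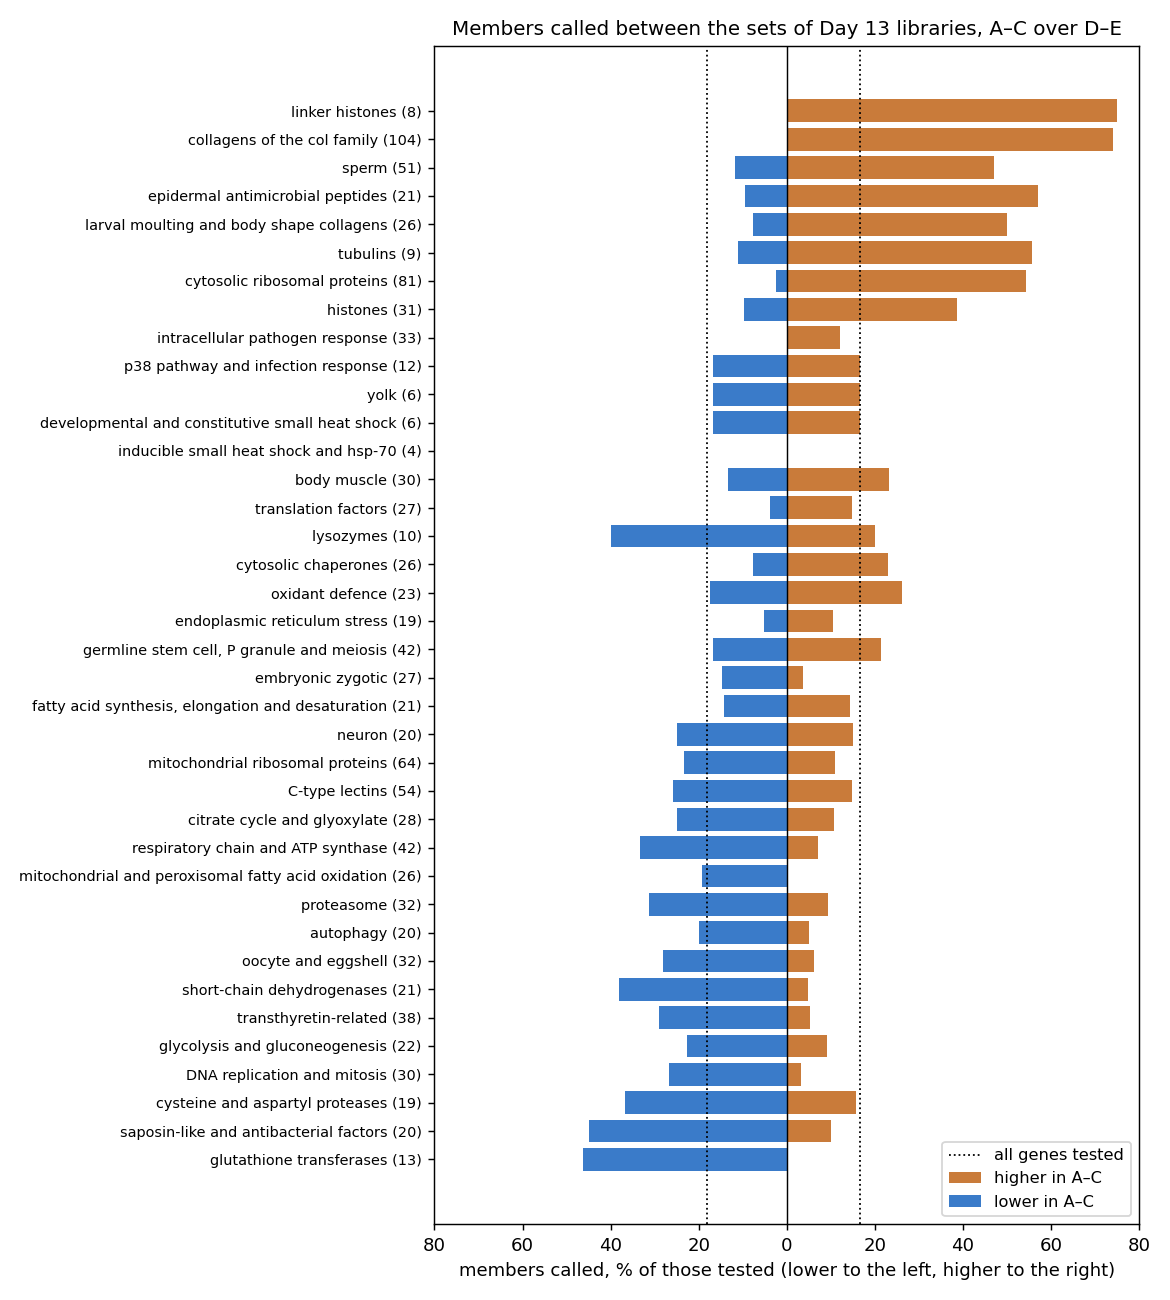
Share of the tested members of each list that were called higher (right) or lower (left) in letters A to C, with the number tested in brackets, lists ordered by median change and dotted lines at the shares over all genes, 16.6% and 18.2%. Collagens, linker histones, antimicrobial peptides, tubulins and ribosomal proteins extend well past the right line on the TMM scale, and glutathione transferases and saposin-like factors past the left one.

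The sets were also compared within each strain, since the principal components split letters A to C by strain. In overexpressing worms (3 against 2 libraries) 8.12% of the genes were higher and 11.3% lower, and in control worms (3 against 2) 25.4% were higher and 29.2% lower. 1413 genes were called in both strains with the same sign and 124 with opposite signs. In overexpressing worms the 2007 calls fell to 1157 without overexpressing B and 908 without overexpressing E. The split of the calls followed the scaling. In overexpressing worms it was 841 higher and 1166 lower, and 1399 higher and 1008 lower with totals lacking the top 3% of genes. In control worms it was 2634 higher and 3027 lower, and 2089 higher and 4406 lower with those totals. Over all genes the median change was 0.08 in overexpressing and -0.30 in control worms with TMM factors, and 0.36 and -0.83 with those totals. With library totals alone the split was 368 higher and 1701 lower in overexpressing and 1076 higher and 6334 lower in control worms.

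The difference between the strains was itself tested. The change was larger in overexpressing worms in 9.91% of genes and smaller in 14.1%, 2487 genes in all, but in 725 without control E, 1448 without overexpressing E and 1647 without overexpressing A. Larger and smaller mean a higher or lower signed log2 change, here and below, and not its size. The direction depended on the scaling, with 1027 larger and 1460 smaller here, 3336 larger and 1048 smaller with totals without the top 3% of genes, 596 larger and 1835 smaller with DESeq2 and 3567 larger and 846 smaller with library totals alone. Sperm genes, histones and antimicrobial peptides had smaller changes in overexpressing worms, and more of them were called lower than higher there. The median change of sperm genes was 0.40 in overexpressing and 2.60 in control worms, and in 19 of 51 it was called smaller in overexpressing worms and in 0 larger. Histones had medians of -0.46 in overexpressing and 1.52 in control worms, with 18 of 31 smaller and 0 larger. Antimicrobial peptides had 0.42 in overexpressing and 2.52 in control worms, with 13 of 21 smaller and 0 larger. These leanings stood with library totals alone, where 16 sperm genes, 12 histones and 8 peptides were smaller and 1, 0 and 0 larger. Without control E they were 5, 9 and 6 smaller, and without overexpressing E 6 sperm genes were. The col collagens had 1.1 in overexpressing and 2.102 in control worms, with 16 smaller and 0 larger, and 5 smaller and 3 larger with library totals alone.

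Some lists ran the other way round. Genes of the response to intracellular pathogens had medians of 1.86 in overexpressing and -0.64 in control worms, with 7 of 33 called larger in overexpressing worms and 1 smaller. DNA replication genes had 0.25 in overexpressing and -1.299 in control worms, with 11 of 30 called larger and 3 smaller. Without control E 1 and 4 were called larger. Glutathione transferases had -1.56 in overexpressing and -1.52 in control worms, and in none of the 13 was the difference between strains called, although 3 were called smaller in overexpressing worms without overexpressing C. The smallest p-values of the strain test belonged to ZK930.6, tbx-43 and ttr-45. ttr-45, a transthyretin-related gene, had 162, 199.9 and 222 CPM in overexpressing A to C, against 237 and 217 CPM in overexpressing D and E. In control worms it had 1295, 999 and 1264 CPM in A to C, against 109 and 99 CPM in D and E. The change was -0.22 in overexpressing and 3.51 in control worms, a difference of -3.73 (edgeR, adjusted p = 0.00727). tbx-43, a T-box gene, had changes of -0.38 and 4.69, and ZK930.6 of -0.75 and 8.20, in overexpressing and in control worms. In all 3 genes the control libraries of letters A to C stood above the other 7 libraries.

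**Figure D4:**
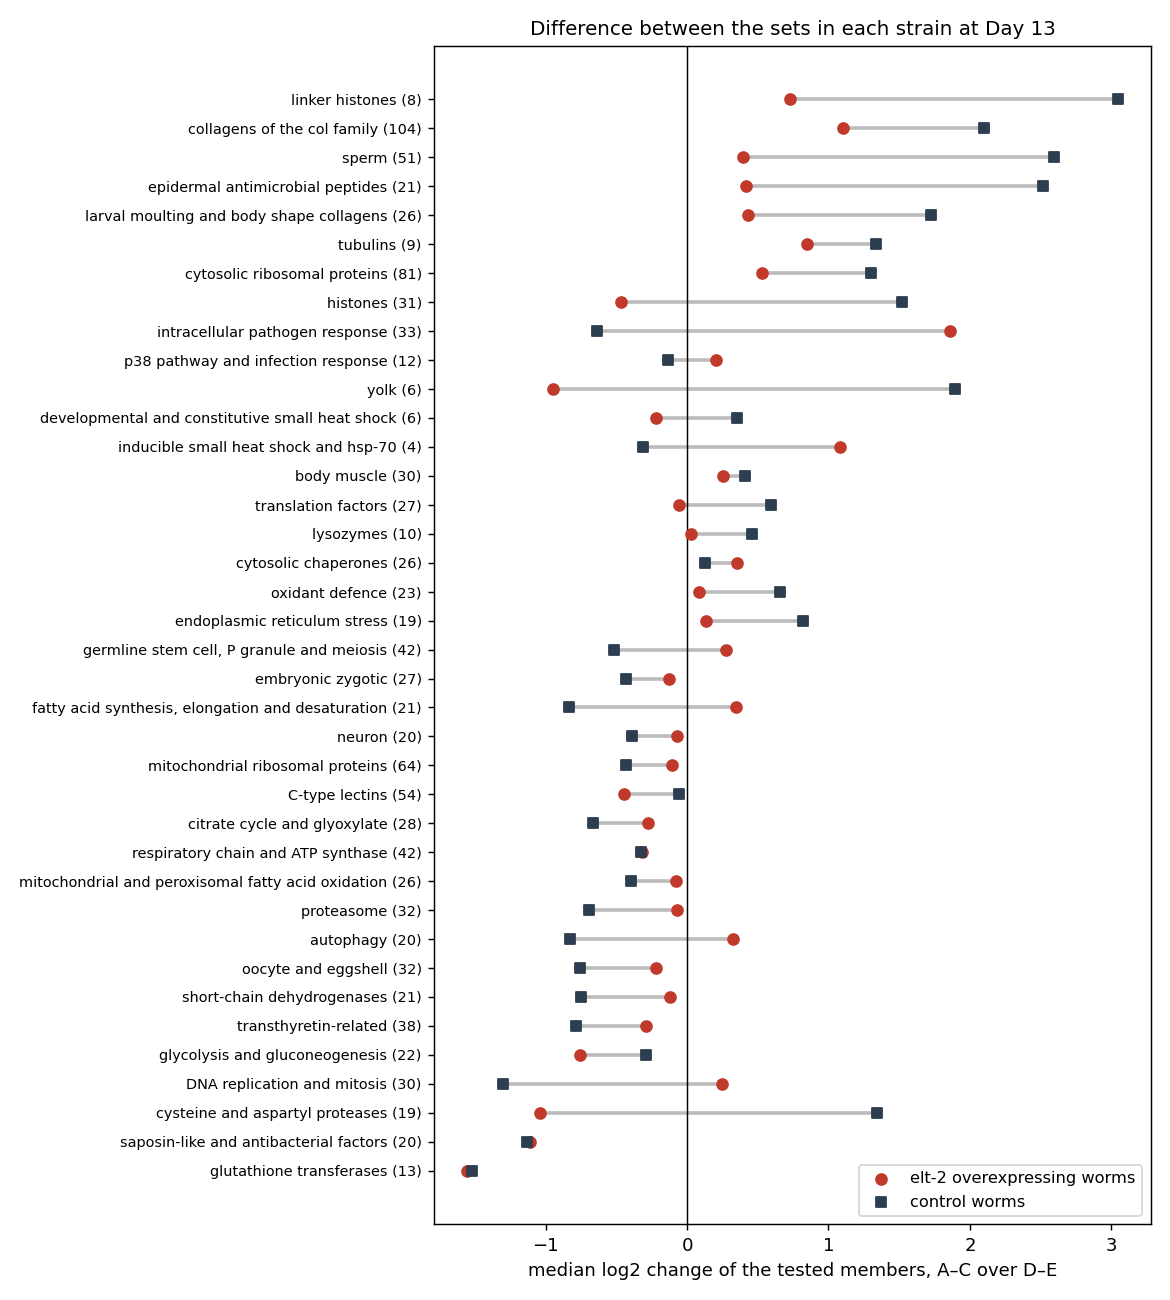
Median log2 change between the sets, letters A to C over D and E, of the tested members of each list in overexpressing worms (red circles) and in control worms (dark blue squares). The uppermost lists, from linker histones to histones, are further right in control worms, the intracellular pathogen response is at 1.86 in overexpressing and -0.64 in control worms, and glutathione transferases have nearly the same value in both.

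Last, the difference between the sets at Day 13 was tested against that at L4 over all 20 libraries. It was larger at Day 13 in 8.73% and smaller in 7.70% of 12093 genes, again by the signed log2 change. Of the 3605 genes called at Day 13, 738 were among them. Glutathione transferases had medians of -1.53 at Day 13 and -1.99 at L4, and 2 of the 13 tested at Day 13 differed between the ages. In the col collagens, with medians of 1.52 and 1.23, 15 were larger and 24 smaller at Day 13. Oocyte and eggshell genes turned round, with a median of -0.39 at Day 13 and 2.71 at L4, and 27 of 32 were smaller at Day 13. Yolk genes had 0.42 (-0.55 with library totals alone) and 7.52, all 6 smaller at Day 13. The moulting and body shape genes went the opposite way, with 1.17 and -1.85, and 21 of 26 were larger at Day 13. Eggshell and yolk genes are switched on in the adult and moulting genes are used up to the last moult. The labels give a single collection time for all L4 libraries, and a difference in stage between them was not tested.

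The smallest p-values of the age test belonged to C18B2.3, col-179 and spex-3. C18B2.3 had 2.4 to 6.43 CPM in letters A to C (median 3.37), against 0.37, 0.308, 0.469 and 0.429 CPM in letters D and E at Day 13 and rose by 3.24 (edgeR, adjusted p = 4.18e-05), but fell by 2.14 at L4, a difference of 5.39 (edgeR, adjusted p = 6.34e-07). spex-3 was higher at both ages, by 1.55 at Day 13 and 8.37 at L4, a difference of -6.80 (edgeR, adjusted p = 2.21e-06). col-179 rose by 6.92 at L4 and was not called at Day 13, at -0.76 (difference -7.67, edgeR, adjusted p = 2.21e-06). C18B2.3 and col-179 overlap a gene on the opposite strand.

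**Figure D5:**
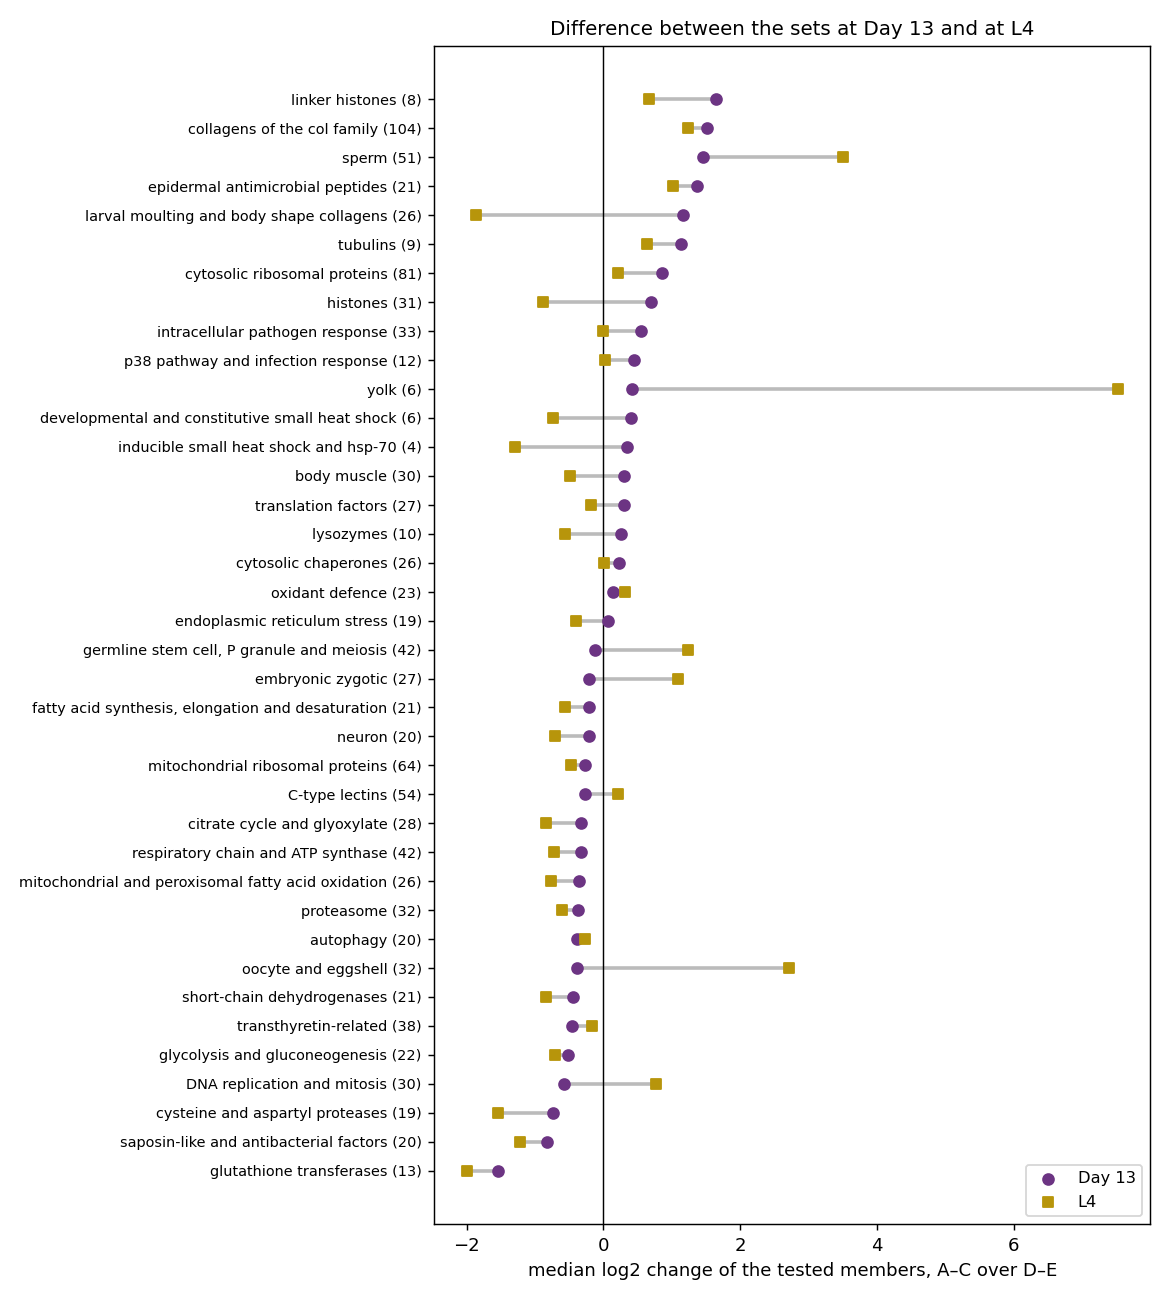
Median log2 change between the sets, letters A to C over D and E, of the tested members of each list at Day 13 (purple circles) and at L4 (yellow squares). Yolk, oocyte and sperm genes are far to the right at L4, moulting and body shape genes are to the left at L4 and to the right at Day 13, and glutathione transferases, saposin-like factors and respiratory chain genes are left of 0 at both ages.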

How the data were processed

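Whole-worm poly-A RNA was measured by 3SEQ in the 10 Day 13 libraries compared here and in 10 L4 libraries, labelled as biological replicates. The authors deposited whole-number counts per gene, not normalized, aligned with Bowtie 0.12.7 according to the submitters' processing notes. The genome build, annotation, counting tool, use of strand and handling of duplicate reads are not given in the sources used here. Of 21383 genes, 20878 (97.638%) were matched by sequence name to the WBcel235 annotation, and 3 columns without a header were not used, of which 1 held values like those of a sample.

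Counts were tested with edgeR 4.0.16 (quasi-likelihood F test, TMM factors, genes kept by filterByExpr) in R 4.3.3 with strain as covariate, by strain, as the interaction of set and strain, and over all 20 libraries as the interaction of set and age. P-values were adjusted by Benjamini-Hochberg over all genes tested and called under 0.1, the 10% rate of the study. The authors' method of leaving the top 3% of genes out of the totals was an alternative, as were RLE and upper-quartile factors, DESeq2 1.42.0, limma-voom (limma 3.58.1), no filter, 1 CPM in 8 libraries, thinned counts, no strain term, replicate blocks by letter, and each library and letter left out. Library totals alone were added after seeing the data. The comparison of the sets with strain as covariate was tested on simulated data.

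The sets, gene lists and named genes were chosen with earlier results of these data known. Lists were entered by hand, and 30 names were not found. Named were the 12 highest and 12 lowest called genes without overlap and with at least 10 CPM in the higher set, up to 4 members per list (called ones with the largest change first in each direction, otherwise the most highly expressed), the array and background genes, 3 genes per interaction, and the 10 most highly expressed genes. Each library held 10.7 to 35.2 M counts.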

Additional observations from a re-analysis of the deposited data

Results flagged for a closer look

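Of 130 groups of 4 or 6 libraries checked for 1 library far from the rest of its set, 10 had one, and chance alone gives about 1 in 20. Overexpressing C stood above the other libraries of letters A to C in 4 of the genes that were lowest in that set. It had 8.99 CPM of exl-1 against 0.37 to 1.28 CPM in the other 5 libraries. It had 13.2 CPM of Y53H1B.2 against 1.46 to 5.54 CPM, 2.44 CPM of T07G12.8 against 0 to 0.206 CPM, and 1.95 CPM of Y66D12A.21 against 0.251 to 0.541 CPM. Overexpressing E had 4.31 CPM of T28F4.6, against 2.15 to 2.50 CPM in the rest of letters D and E. It also held 1754 CPM of glycolysis and gluconeogenesis genes, against 1186 to 1223 CPM, and 792 CPM of C-type lectins, against 662 to 684 CPM. Overexpressing D held 4867 CPM of col collagens, against 6932 to 6969 CPM. Control B held 1587 CPM of sperm transcripts, against 148 to 591 CPM in the other libraries of letters A to C. Control E had 2.31 CPM of rde-1, against 0.513 to 0.601 CPM in the rest of letters D and E.

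The difference between the sets itself differed between strains in 2487 genes (edgeR, interaction of set and strain). The smallest adjusted p-values belonged to ZK930.6, with an overexpressing minus control difference of -8.94 on the log2 scale (edgeR, adjusted p = 0.00702), tbx-43 with -5.07 (0.00702) and ttr-45 with -3.73 (0.00727). It differed between Day 13 and L4 in 1987 genes (edgeR, interaction of set and age), led by C18B2.3 with a Day 13 minus L4 difference of 5.39 (adjusted p = 6.34e-07), col-179 with -7.67 (2.21e-06) and spex-3 with -6.80 (2.21e-06).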

How the results depend on the processing

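The count of 3605 genes between the sets was 2127 to 4276 with a library or letter left out and 2073 with the filter of 1 CPM in 8 libraries, which tests fewer genes, and within 1.5 times of it under the other alternatives. Leaving out libraries gave 908 to 2895 genes in overexpressing worms, 4115 to 6023 in control worms and 725 to 3593 for the difference between strains, for which totals without the top 3% of genes gave 4384 and library totals alone 4413.

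Of 175 called named genes, 106 were called in every fit that left out a library or letter, 43 lost the call without at least 1 library and 26 only without a letter. With library totals alone the log2 changes of atg-18 (-0.19), sip-1 (-0.24), hsp-3 (-0.0016), egg-5 (-0.023), hlh-30 (-0.070), ttr-14 (-0.090), rps-16 (-0.48), rps-9 (-0.15), rps-14 (-0.53) and rps-3 (-0.057) turned round. So did the list medians of body muscle (-0.63), cytosolic ribosomal proteins (-0.074), constitutive small heat shock genes (-0.54), histones (-0.22), inducible heat shock genes (-0.49), the intracellular pathogen response (-0.30), the p38 list (-0.50) and translation factors (-0.61), with the median of all genes at -1.01. With a library or letter left out hsp-16.41 lay between -0.89 and 2.95, beside -0.03 with all 10, and msp-19 turned round in overexpressing worms alone (-0.048). In overexpressing worms alone the medians of DNA replication (0.25), autophagy (0.33), constitutive small heat shock (-0.22), histones (-0.46), translation factors (-0.059) and yolk (-0.95) turned round. In control worms alone those of the cysteine and aspartyl proteases (1.34), inducible heat shock (-0.31), the intracellular pathogen response (-0.64) and p38 (-0.13) did. The protease median was also 0.30 with no strain term and 0.25 with the strains of a letter added up. The cause was not tested.

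The letters were not treated as pairs: deviations of libraries with the same letter correlated at 0.196, 0.465 and 0.181 in A, B and C and at -0.383 in D and E. With the letter as a random replicate block 4895 genes were called, and with letter sums as the block 5104. The random block had a consensus correlation within letters of -0.286. A correlation below 0 lowers the estimated error of a difference between letters, so 4895 is not the count of a stricter test. As a fixed block it gave 2149 genes for the strain test and 1851 for the age test. In 11 genes tested every library of letters A to C had 0 counts, and at 10.7 to 35.2 M counts levels under 0.108 to 0.162 CPM cannot be told from 0.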

Other observations

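The counts in this section stand beside shares over all genes tested of 16.6% higher and 18.2% lower. Genes of the brush border and lumen of the intestine had 1 of 19 tested higher and 4 lower (median -0.45), and their summed level of 26.8 to 48.4 CPM in letters A to C, against 85.1 to 133 CPM in letters D and E did not overlap. GATA factors and intestinal fate genes had 0 of 8 tested higher and 1 lower, with sums of 15.3 to 21.2 CPM in letters A to C, against 15.5 to 27.1 CPM in letters D and E. Pharynx genes had 0 of 11 tested higher and 4 lower (median -0.68). Genes of the vacuolar proton ATPase, which acidifies lysosomes and the gut lumen, had 2 of 20 tested higher and 5 lower, with sums of 137 to 319 CPM in letters A to C, against 109 to 157 CPM in letters D and E. FLP neuropeptides had 2 of 25 tested higher and 6 lower, and insulin-like peptides 5 of 19 tested higher and 3 lower.

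Longevity and stress transcription factors had 6 of 19 tested higher and 1 lower (median 0.08), with summed levels of 328 to 907 CPM in letters A to C, against 227 to 285 CPM in letters D and E, without overlap on the TMM scale. Nuclear hormone receptors had 9 of 75 tested higher and 9 lower (median -0.06), both below the shares over all genes. Their sums were 120.0 to 166 CPM in letters A to C, against 96.1 to 110.2 CPM in letters D and E. The lack of overlap is stated for the TMM scale only. Cytochrome P450 genes had 2 of 17 tested (11.8%) higher and 3 (17.6%) lower, UDP-glucuronosyl transferases 1 of 26 tested (3.85%) higher and 3 (11.5%) lower and pgp transporters 1 of 7 tested (14.3%) higher and 0 lower. None of these exceeded the shares over all genes. F-box A genes had 3 of 40 tested higher and 7 lower, which are also not above those shares. Their sums were 33.3 to 54.5 CPM in letters A to C, against 55.7 to 67 CPM in letters D and E, without overlap. Glutamine-rich abu and pqn genes had 8 of 34 tested higher and 6 lower. Genes of hypoxia had 2 of 7 tested higher and 3 lower. Genes of osmotic stress had 1 of 7 tested higher and 1 lower, those of mitochondrial stress 2 of 10 and 1, and those of metal handling 1 of 12 and 2. In 12 metal handling genes 6 had a smaller signed log2 change in overexpressing than in control worms and 0 a larger one.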
